A study of Mus musculus with 6 samples.

Results

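Iron and heme handling was described through 10 genes of the left ventricle after myocardial infarction (MI), chosen by symbol from the 17556 genes of the expression table. They were *Hmox1*, *Ftl1*, *Fth1*, *Slc40a1*, *Tfrc*, *Hamp*, *Hp*, *Hpx*, *Cp* and *Slc11a1*, and all 10 were found. The 6 mice were siblings aged 6 to 10 weeks at MI, made by permanent ligation of the left anterior descending artery, and whole left ventricles were taken at 4 days post injury (dpi). All 6 carried floxed *Yap* (on each allele) and floxed *Wwtr1* (on a single allele), and all were fed a tamoxifen citrate diet from the time of surgery. The 3 Cre_pos mice also had a copy of the tamoxifen-inducible recombinase MerCreMer at the endogenous *Periostin* (*Postn*) locus, which is active in myofibroblasts, the fibroblasts that form the scar, whereas the 3 Cre_neg mice had wildtype *Periostin*. The question was whether the genotypes differed in these genes. Excision was limited to cells using the *Postn* promoter while the RNA came from every cell of the ventricle, and neither uninjured hearts nor Cre carriers without floxed alleles were part of the comparison.

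Iron is needed for heme, for iron-sulfur clusters and for respiration, but free iron generates radicals, so cells balance its uptake, storage and export. Transferrin-bound iron enters through the transferrin receptor (*Tfrc*), excess iron is stored inside ferritin, a shell of light (*Ftl1*) and heavy (*Fth1*) chains, and iron leaves through ferroportin (*Slc40a1*). The peptide hormone hepcidin (*Hamp*) causes ferroportin to be degraded. After an infarct, bleeding and dying muscle release hemoglobin and myoglobin, and macrophages take up dying cells and break down their heme with heme oxygenase 1 (*Hmox1*). Haptoglobin (*Hp*) binds free hemoglobin and hemopexin (*Hpx*) binds free heme, ceruloplasmin (*Cp*) oxidizes iron as it leaves the cell, and the product of *Slc11a1* pumps iron out of phagosomes.

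Several of these messages carry an iron-responsive element, a hairpin bound by iron regulatory proteins when iron is scarce. In a 5′ untranslated region this binding blocks translation, and in the 3′ untranslated region of *Tfrc* it protects the message from decay. The hairpin was searched for in the mouse transcripts of GENCODE M39 as the 6-base loop CAGTGN, with an arm of 5 bases on each side that pair (G-T pairs allowed) and an unpaired C just before the first arm. A match was found in the 5′ untranslated region of 47 of 20927 genes (0.225%), among them *Fth1*, *Ftl1* and *Slc40a1*, and in the 3′ untranslated region of 163 of 20960 genes (0.778%), among them *Tfrc* with 4 matches. No match was found in the other 6 genes. The matches are shown 5′ to 3′ because they separate the members whose messages carry this element from the rest, with the loop in capitals and the *Tfrc* matches numbered from the start of the untranslated region:
Fth1: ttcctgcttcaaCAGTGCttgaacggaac
Ftl1: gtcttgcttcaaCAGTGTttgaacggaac
Slc40a1: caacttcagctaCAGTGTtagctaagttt
Tfrc 1: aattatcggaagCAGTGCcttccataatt
Tfrc 2: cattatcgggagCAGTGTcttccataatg
Tfrc 3: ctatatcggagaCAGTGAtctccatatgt
Tfrc 4: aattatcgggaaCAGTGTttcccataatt
The *Fth1* and *Ftl1* windows were identical at 26 of 29 bases, and the *Slc40a1* window matched either of them at 13 of 29. A match describes the sequence, and RNA counts do not measure translation.

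Promoter windows from 250 bases before to 50 bases after the start of the gene were held in the RefSeq table of GRCm38.p6 for 7 of the 10 genes. The window of *Hamp* is shown because this gene differed most between ventricles and is known to respond to bone morphogenetic proteins (BMPs) and to IL-6. It lies at chr7:30943980-30944279 on the minus strand, and the capitals mark a GGCGCC core of the BMP response element followed by a TTCNNNGAA match of the STAT site:
Hamp: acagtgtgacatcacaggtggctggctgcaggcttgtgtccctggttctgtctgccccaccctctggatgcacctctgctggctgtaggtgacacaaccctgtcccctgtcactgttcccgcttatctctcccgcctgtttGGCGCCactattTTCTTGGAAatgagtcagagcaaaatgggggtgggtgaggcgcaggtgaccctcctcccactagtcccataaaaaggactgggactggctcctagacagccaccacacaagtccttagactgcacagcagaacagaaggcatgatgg
Searched on both strands, GGCGCC was present in 11.9% and TTCNNNGAA in 8.3% of 32851 such windows. Among the other members with a window, GGCGCC also matched in a window of *Tfrc* and TTCNNNGAA in none. The antioxidant response core TGACNNNGC, present in 12.4% of windows, matched only in *Hpx*, and the PU.1 core GAGGAA, present in 28.3%, matched only in *Slc11a1*.

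The libraries held 13177888 to 14827579 estimated counts. Counts of Y-linked genes summed to 16 in replicate 2 of Cre_neg and 12 in replicate 2 of Cre_pos, against 1592 to 2034 in the other ventricles. Each group thus held a ventricle with few such counts, and this was adjusted for only in an alternative fit with a Y-linked covariate. Replicate 1 of Cre_neg (Cre_neg 1) stood apart, since the chi-square per gene, which is near 1 for counting noise alone, was 44.5 to 68.8 for the 5 pairs of libraries that contained it and 8.13 to 17.2 for the other 10 pairs. Its summed neutrophil markers were 178 CPM (counts scaled to 1000000 per library) against 54.3 to 90.2 in the others, its cardiomyocyte markers 54030 against 35830 to 41570, its macrophage markers 2308 against 2873 to 3652 and its fibroblast markers 12870 against 20070 to 24030. The markers with the most counts in these lists were *Csf3r*, *Actc1*, *Lyz2* and *Col1a1*. *Csf3r* went against the neutrophil sum, being lowest in Cre_neg 1 (12.3 TPM against 17.4 to 25.95), whereas *S100a8* and *S100a9* were highest there (152 and 203 TPM). As a check of the labels, the genes targeted by the cross had log2 fold changes of Cre_pos over Cre_neg of 0.03 for *Yap1* and 0.05 for *Wwtr1* (adjusted p = 0.935 and 0.876, edgeR). The log2 fold change of *Postn* itself was -0.66 (adjusted p = 0.714), and -0.94 without Cre_neg 1 (adjusted p = 0.0182). *Postn* is also the locus that holds MerCreMer in Cre_pos alone, and the part of that insertion in its level was not tested. In whole tissue, fewer cells of a type and less RNA per cell cannot be told apart. Levels are given below in TPM, which scales counts by transcript length to a fixed sum per library, in the order of replicates 1, 2 and 3.

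None of the 9 members that could be tested differed between genotypes at an adjusted p under 0.05 (edgeR's quasi-likelihood test over 13817 genes, Benjamini-Hochberg), where 1 gene, *Gbp2b*, or 0.00724% of those tested, did. The number of members with an unadjusted p under 0.05 was 0 with edgeR and 3 with DESeq2's Wald test (*Fth1*, *Tfrc* and *Hamp*, with adjusted p from 0.785 to 0.832), against 5.83% of all genes with edgeR and 5.88% with DESeq2. It was 2 (*Tfrc* and *Hamp*) with edgeR and no filter on low counts, against 5.41% of all genes, and 0 to 2 with a ventricle left out, against 2.68% to 9.61% of all genes. The fold change was above 0 for 3 members and below 0 for 6, with a median of -0.21 on the log2 scale, and the median of all genes tested was 0.0062. Without Cre_neg 1 the median of the members was -0.20, with 2 above 0 and 7 below (50% of all genes were below 0 in that setting). The macrophage markers moved the same way there, with 1 of 10 fold changes above 0, 9 below, 3 lower at an unadjusted p under 0.05 (against 6.59% of all genes) and a median of -0.19, and their part in the members' values was not tested.

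**Figure D1:**
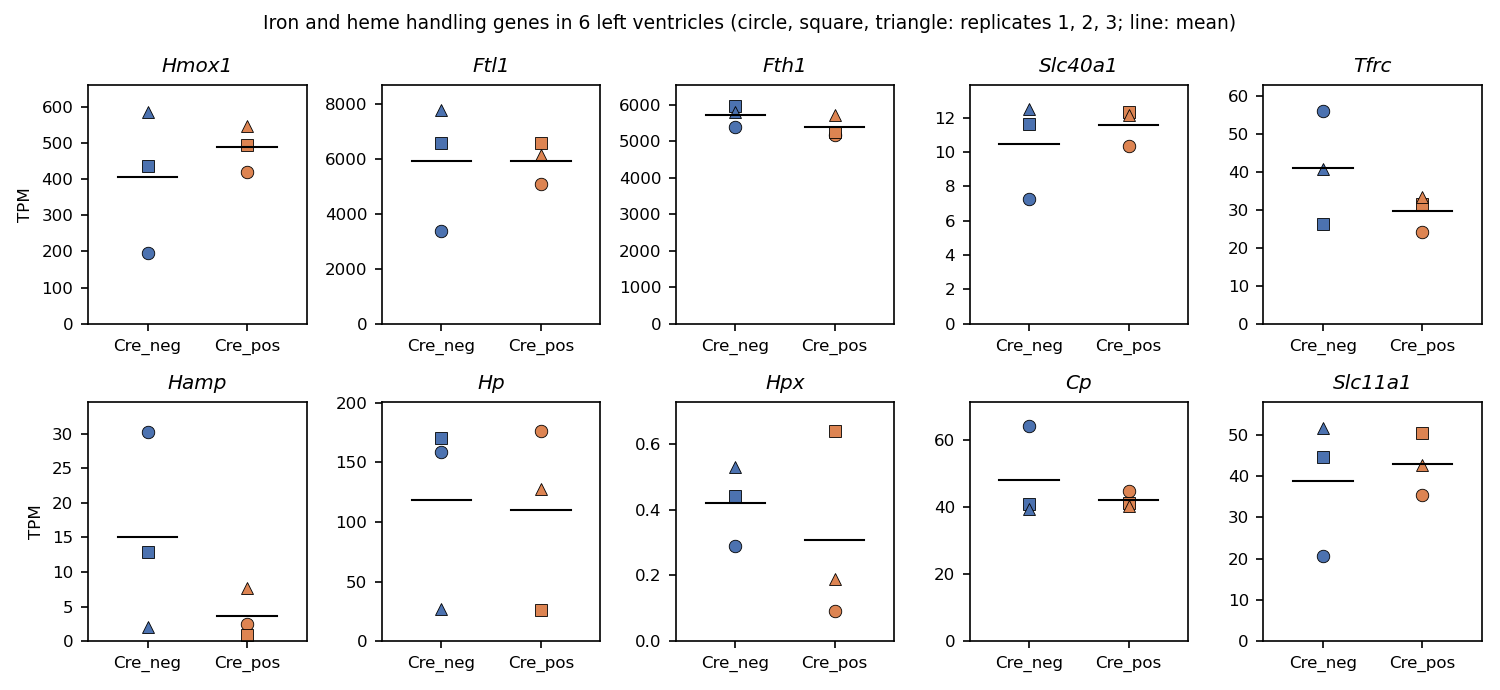
TPM of the 10 genes in each ventricle, with Cre_neg in blue and Cre_pos in orange; circles, squares and triangles are replicates 1, 2 and 3, lines are group means (n = 3) and every axis starts at 0. The groups overlapped on the TPM scale in all 10 genes, and Cre_neg 1 was the lowest ventricle for *Hmox1*, *Ftl1*, *Slc40a1* and *Slc11a1* and the highest for *Tfrc*, *Hamp* and *Cp*.

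*Hmox1* (chr8:75093618-75100593, GRCm38.p6) encodes the inducible enzyme that opens the heme ring and releases iron, carbon monoxide and biliverdin. It was measured at 196, 436 and 586 TPM in Cre_neg and at 419, 495 and 548 TPM in Cre_pos. Its mean TPM over the 6 ventricles exceeded that of 98.0% of listed genes. The 3 Cre_pos values lay inside the range of Cre_neg, and the lowest value by far was Cre_neg 1. The means were 406 ± 197 and 487 ± 64.8 TPM (SD, n = 3 each), and the log2 fold change of Cre_pos over Cre_neg was 0.17 (95% interval -0.56 to 0.89, adjusted p = 0.881, edgeR). Without Cre_neg 1 it was -0.14.

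The constitutive heme oxygenase *Hmox2* was less variable, at 114, 115 and 123 TPM in Cre_neg and 109, 109 and 112 TPM in Cre_pos. Its normalized counts did not overlap between groups, with a log2 fold change of -0.20 (adjusted p = 0.714, edgeR). *Hmox1* stood at 1.72, 3.78 and 4.76 times the *Hmox2* level per length in Cre_neg and at 3.86, 4.52 and 4.91 times in Cre_pos. In each ventricle the inducible enzyme was the more abundant of the pair, and the ratio was lowest in Cre_neg 1. The ratios of the genotypes overlapped (exact two-sided permutation test, p = 0.4, and 0.833 after adjustment over 5 ratios, where 3 against 3 cannot give less than 0.1). The biliverdin reductases *Blvra* and *Blvrb*, which act on the product of heme oxygenase, belong to a list of heme degradation in which 2 of 7 fold changes were above 0, and had log2 fold changes of -0.26 and -0.26 (adjusted p = 0.714 for each, edgeR). Without Cre_neg 1 *Blvra* was at -0.34 and *Blvrb* at -0.32 (adjusted p = 0.733 and 0.7289, edgeR).

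The ferritin chains were the most abundant members. *Ftl1* (chr7:45457944-45459886) was measured at 3383, 6567 and 7759 TPM in Cre_neg and at 5083, 6565 and 6150 TPM in Cre_pos. *Fth1* (chr19:9980600-9985111) was measured at 5376, 5962 and 5800 TPM in Cre_neg and at 5157, 5240 and 5719 TPM in Cre_pos. The mean TPM of each exceeded that of over 99.9% of listed genes, *Ftl1* by 99.95% and *Fth1* by 99.93%. The light chain varied 2.29-fold between the lowest and highest ventricle and the heavy chain 1.16-fold.

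*Fth1* was the single member of the 9 tested whose normalized counts did not overlap between genotypes, whereas 14.4% of all genes tested did not overlap. Its normalized counts were 40620, 40380 and 39090 in Cre_neg and 34630, 32550 and 36650 in Cre_pos, so that each Cre_pos ventricle lay below each Cre_neg ventricle. The means were 40030 ± 826 and 34610 ± 2048 normalized counts (SD, n = 3 each), a log2 fold change of -0.21 (SE 0.12, 95% interval -0.48 to 0.06, adjusted p = 0.714, edgeR). The separation depended on the scale, since the TPM values of Cre_neg 1 and of replicate 3 of Cre_pos crossed. The fold change was below 0 with each ventricle left out in turn, from -0.25 to -0.17, and was -0.09 by limma on TPM.

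*Ftl1* gave a log2 fold change of -0.10 (95% interval -0.68 to 0.49, adjusted p = 0.917, edgeR). Without Cre_neg 1 it was -0.35 (unadjusted p = 0.0111, adjusted p = 0.729), a setting in which the macrophage marker sum was 3368 to 3652 CPM in Cre_neg and 2873 to 3371 CPM in Cre_pos. Light to heavy chain ratios were 0.629, 1.10 and 1.34 in Cre_neg and 0.986, 1.25 and 1.08 in Cre_pos on the TPM scale. Heavy chain exceeded light chain only in Cre_neg 1 and narrowly in replicate 1 of Cre_pos, and the ratio gave p = 0.9 between genotypes (exact two-sided permutation test, adjusted p = 0.9). Ferritin genes have near-identical processed copies, and in replicate 2 of each group the *Ftl1* count was not whole because shared reads had been divided, so its level is uncertain to that extent.

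*Slc40a1* (chr1:45908070-45926532), the only known exporter of iron, was present at 7.24, 11.6 and 12.5 TPM in Cre_neg and at 10.3, 12.3 and 12.1 TPM in Cre_pos. The 3 Cre_pos values fell within the range of Cre_neg, whose low value was Cre_neg 1. The log2 fold change was 0.04 (95% interval -0.35 to 0.42, adjusted p = 0.957, edgeR), and -0.13 without Cre_neg 1.

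*Tfrc* (chr16:32608896-32632794), through which cells take up transferrin-bound iron, was present at 56.2, 26.4 and 40.7 TPM in Cre_neg and at 24.3, 31.7 and 33.5 TPM in Cre_pos. The highest values were replicates 1 and 3 of Cre_neg, and replicate 2 of Cre_neg lay among the Cre_pos values. The means were 41.1 ± 14.9 and 29.8 ± 4.88 TPM (SD, n = 3 each), and the log2 fold change was -0.60 (SE 0.28, 95% interval -1.26 to 0.05, unadjusted p = 0.0662, adjusted p = 0.714, edgeR). With each ventricle left out it ranged from -0.86 to -0.24. The former was without replicate 2 of Cre_neg (unadjusted p = 0.0043, adjusted p = 0.6545, edgeR) and the latter without Cre_neg 1. In Cre_neg 1 the cardiomyocyte, neutrophil and erythroid marker sums were also highest (erythroid 7757 CPM against 3773 to 6911), and the part of these cells in the *Tfrc* level was not tested.

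The ratio of exporter to importer, *Slc40a1* over *Tfrc*, was 0.129, 0.440 and 0.307 in Cre_neg and 0.425, 0.389 and 0.362 in Cre_pos. *Tfrc* thus exceeded *Slc40a1* in each ventricle, most of all in Cre_neg 1. Between genotypes the log2 ratio was higher by 0.59 in Cre_pos (exact two-sided permutation test, p = 0.4, adjusted p = 0.833), and by 0.09 without Cre_neg 1. The ratio of *Tfrc* to *Fth1*, messages with the element in opposite untranslated regions, was 0.0105, 0.00443 and 0.00702 in Cre_neg and 0.00471, 0.00605 and 0.00586 in Cre_pos (p = 0.5, exact two-sided permutation test, adjusted p = 0.833).

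*Hamp* (chr7:30942368-30944029) had the largest estimated difference of the members and the fewest counts of those tested. Its estimated counts were 70, 32 and 5 in Cre_neg and 6, 2 and 18 in Cre_pos, or 30.28, 12.96 and 2.02 TPM and 2.5, 0.84 and 7.71 TPM. The 2 highest ventricles were Cre_neg, but replicate 3 of Cre_neg lay below replicates 1 and 3 of Cre_pos. The log2 fold change was -2.19 (SE 1.002, 95% interval -4.52 to 0.13, unadjusted p = 0.0614, adjusted p = 0.714, edgeR). It was below 0 with each ventricle left out, from -3.30 to -1.10, the latter without Cre_neg 1. *Hamp* was more variable over the 6 ventricles than 99.91% of the genes tested, with a coefficient of variation of 127.5% against a median of 13.3%. *Ahsg*, the only liver cell marker tested, was also highest in Cre_neg 1 (310 estimated counts against 30 to 58). Its log2 fold change was -1.76 (adjusted p = 0.714, edgeR), and -0.18 without Cre_neg 1. Its relation to the *Hamp* level was not tested.

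Genes that set hepcidin transcription in the liver were also measured, 3 of the 6 tested having fold changes above 0 and 3 below. *Hfe2*, the co-receptor hemojuvelin that muscle also expresses, was at 281, 158 and 148 TPM in Cre_neg and 174, 130 and 148 TPM in Cre_pos. As for *Hamp*, its highest value was Cre_neg 1, and its log2 fold change was -0.51 (adjusted p = 0.714, edgeR), and -0.08 without Cre_neg 1. *Bmp2*, a BMP ligand, had a log2 fold change of 0.43 with groups that did not overlap in normalized counts, and *Hfe* had one of -0.33 (adjusted p = 0.714 and 0.721, edgeR). Without Cre_neg 1 these were 0.21 and 0.0069.

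*Hp* (chr8:109575128-109579172) formed a low and a high set of ventricles that crossed the genotypes. It was present at 159, 171 and 26.6 TPM in Cre_neg and at 177, 25.9 and 127 TPM in Cre_pos. Replicate 3 of Cre_neg and replicate 2 of Cre_pos were low and the other 4 ventricles were high, and the log2 fold change between genotypes was -0.23 with a wide interval of -2.07 to 1.62 (adjusted p = 0.942, edgeR). Its coefficient of variation, 63.3%, exceeded that of 98.46% of the genes tested.

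The same ventricles were low in genes of fat cells. *Adipoq*, which encodes the fat cell hormone adiponectin, was at 39.9, 33.4 and 5.06 TPM in Cre_neg and 34.1, 3.77 and 25.3 TPM in Cre_pos. *Cidec*, a lipid droplet protein, was at 13.7, 16.0 and 2.52 TPM and at 11.7, 2.02 and 12.7 TPM. Of the 5 fat cell markers listed, *Adipoq*, *Cidec* and *Plin1* were lowest in these 2 ventricles, *Lep* was at or near 0 throughout, and *Fabp4*, which endothelial cells also express and which led the list, was not lowest there. The sum of the 4 markers other than *Fabp4* was 5.06 and 7.23 CPM in the low ventricles and 34.6 to 46.1 CPM in the others, while the sum of all 5 ranged from 247.5 to 360.4 CPM in Cre_neg and from 263.2 to 320.9 CPM in Cre_pos. The part of fat tissue in the *Hp* level was not tested.

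Over all genes tested, those most like *Hp* in log2 CPM across the 6 ventricles were *Cfd*, which encodes the fat cell protease adipsin, *Cyp2e1* and *Dpyd*, with Pearson r of 0.997, 0.995 and 0.994. *Cfd* was at 221, 296 and 33.1 TPM in Cre_neg and 306, 34.6 and 192 TPM in Cre_pos. These are the highest of 13816 values and describe the 6 ventricles; without the 2 ventricles farthest from the *Hp* median, r was 0.897, 0.863 and 0.932.

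**Figure D2:**
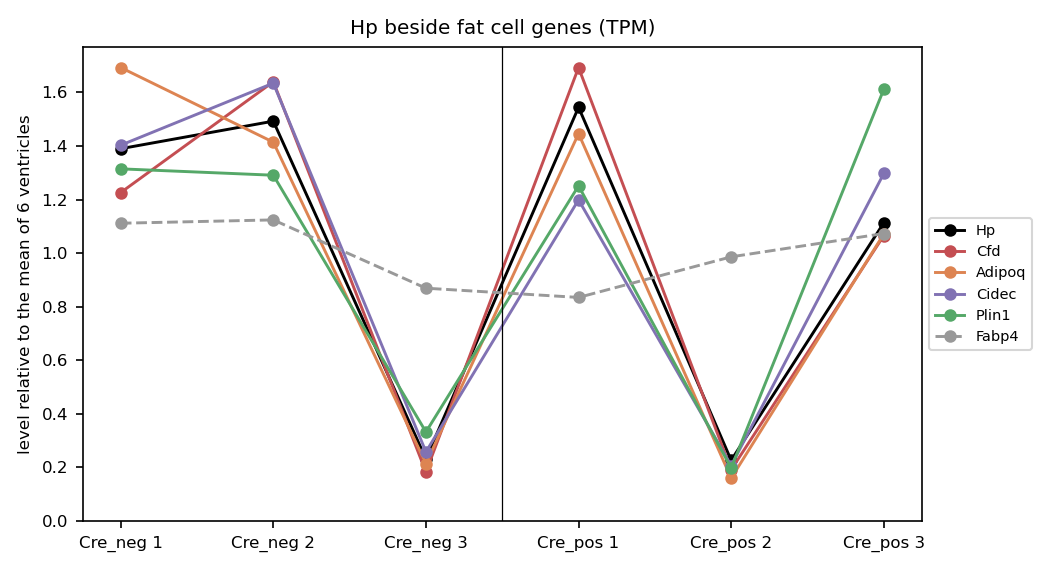
TPM of *Hp*, *Cfd*, *Adipoq*, *Cidec*, *Plin1* and *Fabp4* in each ventricle, divided by the mean of that gene over the 6 ventricles; lines only join the points of a gene. *Hp* was at 26.6 TPM in Cre_neg 3 and 25.9 TPM in Cre_pos 2, where *Cfd*, *Adipoq*, *Cidec* and *Plin1* were also lowest and *Fabp4* was not.

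*Hp* and *Hpx* are secreted mainly by the liver, whose own markers other than *Ahsg* were close to absent. *Alb*, serum albumin, was at 0.07, 0 and 0 TPM in Cre_neg and 0, 0 and 0.26 TPM in Cre_pos. *Ahsg* led the 5 hepatocyte markers in the table, with 29.0 TPM in Cre_neg 1 and 2.67 to 5.04 TPM elsewhere, and without it the list summed to 0.135 to 1.37 CPM. *Hpx* (chr7:105591611-105600116) was near the limit of detection, with 3, 5 and 6 counts in Cre_neg and 1, 7 and 2 counts in Cre_pos, and did not pass the filter on low counts. Without that filter its log2 fold change was -0.57 (adjusted p = 0.828, edgeR), which is not a detectable difference at this depth. The ratio of *Hp* to *Hpx*, the last of the 5 ratios, rests on 1 to 7 *Hpx* counts a ventricle, so its difference between genotypes is not read.

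*Cp* (chr3:19956933-20009750), the copper-containing ferroxidase, was at 64.3, 41.0 and 39.4 TPM in Cre_neg and at 44.9, 41.3 and 40.5 TPM in Cre_pos. Apart from Cre_neg 1 the ventricles lay within 39.4 to 44.9 TPM. The log2 fold change was -0.31 (95% interval -0.82 to 0.20, adjusted p = 0.721, edgeR) and 0.0064 without Cre_neg 1.

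*Slc11a1* (chr1:74375014-74386057), a divalent metal transporter of phagosomes in macrophages and neutrophils, was at 20.5, 44.6 and 51.7 TPM in Cre_neg and at 35.4, 50.4 and 42.8 TPM in Cre_pos. The Cre_pos values again fell inside the Cre_neg range. The log2 fold change was 0.04 (95% interval -0.58 to 0.66, adjusted p = 0.972, edgeR) and -0.24 without Cre_neg 1.

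**Figure D3:**
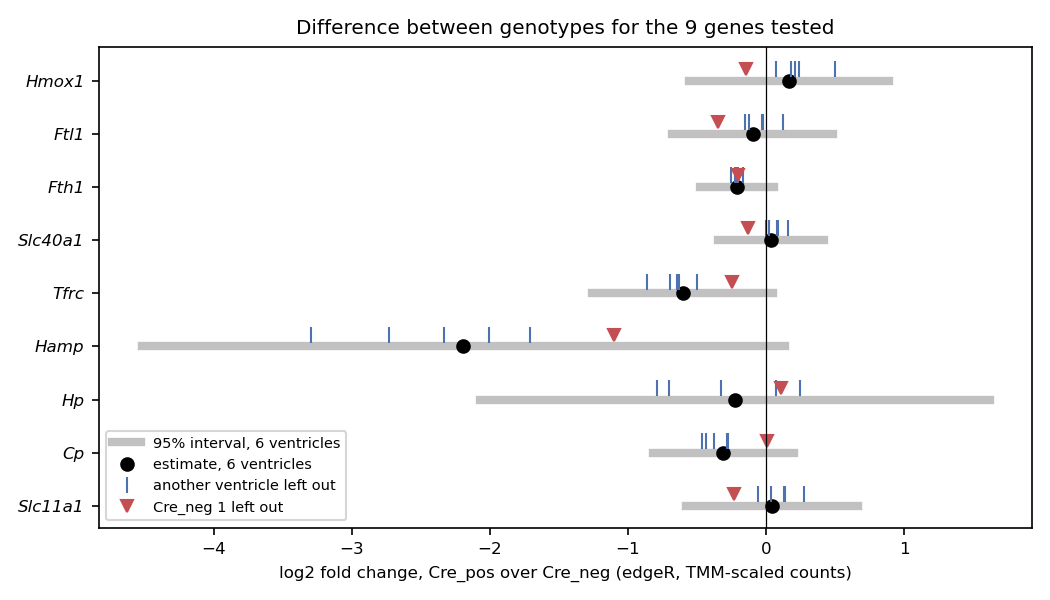
Log2 fold change of Cre_pos over Cre_neg for the 9 genes tested (x axis); black points are estimates from 6 ventricles, grey bars 95% intervals, blue ticks the estimate with another ventricle left out and red triangles that without Cre_neg 1. Each interval includes 0, and *Fth1*, *Tfrc* and *Hamp* stayed below 0 with any ventricle left out.

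*Hmox1*, *Ftl1*, *Slc40a1* and *Slc11a1* shared a pattern over the ventricles. Each was lowest in Cre_neg 1 and next lowest in replicate 1 of Cre_pos on the TPM scale, and *Hmox1*, *Ftl1*, *Slc40a1* and *Slc11a1* were each highest in replicate 3 of Cre_neg. The macrophage marker sum was also lowest in Cre_neg 1 (2308 CPM) and highest in replicate 3 of Cre_neg (3652 CPM), and its ranges were 2308 to 3652 CPM in Cre_neg and 2873 to 3371 CPM in Cre_pos. Its next lowest ventricle was not that of these genes, being replicate 2 of Cre_pos (2873 CPM, against 3100 CPM in replicate 1), where *Slc40a1* and *Slc11a1* were second highest. Of the 10 macrophage markers none was at 0 in any ventricle. The surface marker *Cd68* was at 255, 504 and 530 TPM in Cre_neg and 383, 501 and 410 TPM in Cre_pos. The complement gene *C1qa* was at 559, 760 and 783 TPM in Cre_neg and 681, 571 and 736 TPM in Cre_pos, and the mannose receptor *Mrc1* was lowest in replicate 2 of Cre_neg (26.7 TPM). The part of macrophages in the level of these genes was not tested.

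Genes most like *Hmox1* in log2 CPM were *Zcchc12*, *Cyth4* and *Cx3cr1*, with Pearson r over 6 ventricles of 0.998, 0.995 and 0.994. *Zcchc12* was at 1.59 TPM or less, whereas *Cx3cr1*, a chemokine receptor of monocytes and macrophages, was at 5.67, 16.4 and 22.6 TPM in Cre_neg and 16.1, 20.4 and 23.9 TPM in Cre_pos. Those most like *Slc40a1* were *Galnt6*, *Cd48* and *Neurl3*, with r of 1.0, 0.999 and 0.998, *Cd48* being a surface protein of leukocytes. Each r is a description of values that include the low Cre_neg 1, the largest of 13816; without the 2 ventricles farthest from the member's median r was 0.98, 0.908 and 0.992 for *Hmox1* and 0.996, 0.991 and 0.966 for *Slc40a1*.

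**Figure D4:**
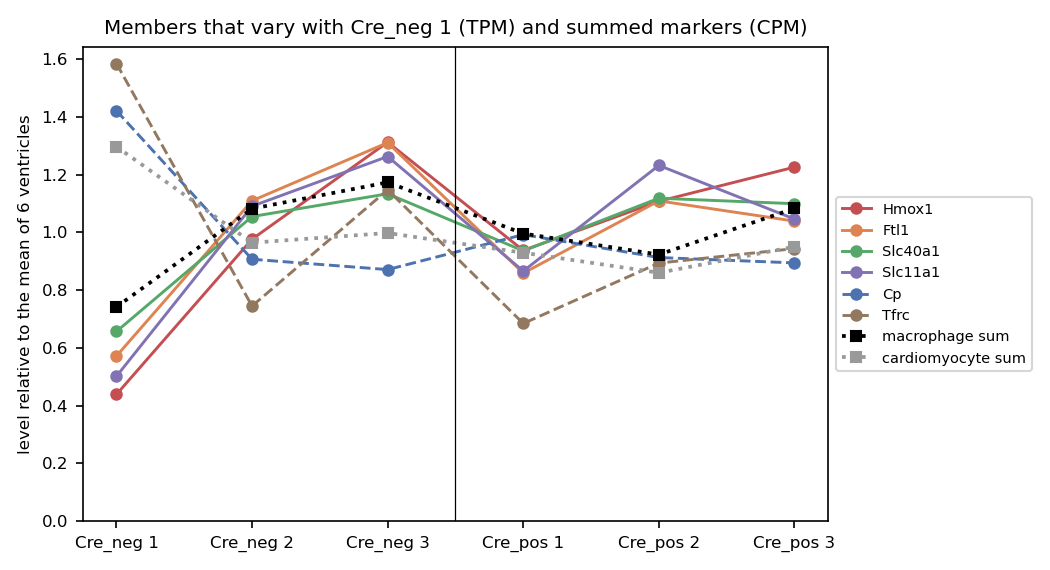
TPM of 6 members, and summed macrophage and cardiomyocyte markers in CPM, in each ventricle, divided by their mean over the 6 ventricles; lines only join the points of a gene or sum. *Hmox1*, *Ftl1*, *Slc40a1*, *Slc11a1* and the macrophage sum were lowest in Cre_neg 1, where *Cp*, *Tfrc* and the cardiomyocyte sum were highest. For *Tfrc* this contrast rested on that ventricle. Its Pearson r in log2 CPM with *Hmox1*, *Ftl1*, *Slc40a1* and *Slc11a1* was -0.623 to -0.47 over 6 ventricles and 0.784 to 0.981 without Cre_neg 1. With *Cp* it was 0.759 and -0.715.

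Beyond these members, 72 of 74 other genes could be tested, in 7 lists of iron and heme handling, a list of antioxidant genes and a list of acute phase and IL-6 genes. None passed an adjusted p of 0.05 with edgeR or any of its alternatives, 2 were higher and 6 lower at an unadjusted p under 0.05 (against 5.83% of all genes tested), and 31 fold changes were above 0 and 41 below (48.8% of all genes were below), with a median of -0.027. Both genes that were higher, *Il1b* and *Osmr*, came from the acute phase list. The normalized counts of 11 (15.3%) did not overlap between genotypes, close to the 14.4% of all genes. Without Cre_neg 1, 39 were above 0 and 33 below, with 6 higher and 6 lower at an unadjusted p under 0.05 (against 6.59% of all genes tested in that setting).

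Genes of heme synthesis had fold changes below 0 for 9 of 9 members (median -0.18, 1 of 9 at an unadjusted p under 0.05), and genes of mitochondrial iron and iron-sulfur clusters for 7 of 8 (median -0.16, 3 of 8), where 48.8% of all genes tested were below 0 and 5.83% had an unadjusted p under 0.05. *Urod*, an enzyme midway along heme synthesis, had a log2 fold change of -0.28, *Alas1*, which starts the pathway outside red cells, -0.42, and *Alad*, its next enzyme, -0.22. *Iscu*, the scaffold on which clusters are built, was at 223, 194 and 181 TPM in Cre_neg and 176, 160 and 157 TPM in Cre_pos, a log2 fold change of -0.41. The glutaredoxin *Glrx5*, which also serves cluster assembly, had a log2 fold change of -0.28, and the adjusted p was 0.714 for each of these 5 genes (edgeR). Without Cre_neg 1 the log2 fold changes were -0.21 for *Urod*, -0.10 for *Alas1*, -0.13 for *Alad*, -0.26 for *Iscu* and -0.18 for *Glrx5*. The 8 cardiomyocyte markers had fold changes below 0 as well (median -0.33), and their sum was 40170 to 54030 CPM in Cre_neg and 35830 to 39590 CPM in Cre_pos, with no overlap. The 7 erythroid markers tested were also below 0 (median -0.126), whereas 6 of 7 were above 0 without Cre_neg 1 (median 0.233, with 50% of all genes below 0 in that setting). The part of cardiomyocyte and erythroid RNA in these lists was not tested. Without Cre_neg 1 the counts below 0 were 7 of 9 for heme synthesis (median -0.08), 6 of 8 for mitochondrial iron (median -0.09) and 7 of 8 for cardiomyocyte markers (median -0.14).

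Of 10 genes of iron uptake and transport 7 had fold changes above 0, with log2 fold changes of 0.47 for the metal importer *Slc39a8*, -0.17 for the ferrireductase *Steap3* and -2.07 for the iron-chelate binding protein *Lcn2*. *Lcn2* was at 500 TPM in Cre_neg 1 and at 24.95 to 87.8 TPM in the other 5 ventricles, and its log2 fold change turned to 0.23 without Cre_neg 1. Without that ventricle 8 of the 10 were above 0 (median 0.20, 3 higher and 0 lower at an unadjusted p under 0.05, against 6.59% of all genes), and *Slc39a8* was at 0.69. The 3 were *Slc39a8*, *Slc39a14* and the neutrophil granule gene *Ltf*, and the neutrophil markers were above 0 for 7 of 8 in that setting (median 0.53, 3 higher at an unadjusted p under 0.05), whose part was not tested. With all 6 ventricles the list had a median of 0.04, with 0 higher and 0 lower at that threshold. Among 6 genes of storage and sensing, 3 were above 0 and the largest change was 0.11 for *Ireb2*, an iron regulatory protein, with 0.07 for the iron chaperone *Pcbp1* and -0.06 for *Aco1*, the other iron regulatory protein (-0.02 without Cre_neg 1). Of the 8 genes of heme transport and uptake 5 were above 0, with -0.19 for the heme transporter *Slc48a1*, -0.70 for *Cd163*, the macrophage receptor for hemoglobin-haptoglobin, and -0.30 for *Flvcr2*. Without Cre_neg 1, *Cd163* was at -0.03 and *Flvcr2* at -0.08, *Cd163* having been at 18.1 TPM in that ventricle and at 6.47 to 8.09 TPM elsewhere. The adjusted p was 0.714 or more for each of these genes (edgeR).

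Among 8 antioxidant genes driven by the transcription factor Nrf2, 3 were above 0. *Nqo1*, a quinone reductase, was at 55.5, 50.7 and 53.0 TPM in Cre_neg and 38.8, 48.1 and 46.4 TPM in Cre_pos, with no overlap between groups and a log2 fold change of -0.38 (unadjusted p = 0.0082, adjusted p = 0.714, edgeR). Without Cre_neg 1 it was -0.30 (adjusted p = 0.7289, edgeR). *Slc7a11*, the cystine importer, gave 0.65 on only 9 to 21 estimated counts a ventricle, and *Gclm*, of glutathione synthesis, -0.14 (-0.04 without Cre_neg 1). Of 11 acute phase and IL-6 genes 7 were above 0 (median 0.05, 2 higher and 0 lower at an unadjusted p under 0.05, against 5.83% of all genes). Without Cre_neg 1, 9 were above 0 (median 0.16, 3 higher and 0 lower, against 6.59% of all genes). The neutrophil markers were above 0 for 7 of 8 in that setting (median 0.53), and their part in this list was not tested. *Il1b*, the inflammatory cytokine interleukin 1β, was at 2.75, 2.95 and 4.79 TPM in Cre_neg and 6.05, 7.65 and 11.1 TPM in Cre_pos, each Cre_pos ventricle being higher than each Cre_neg ventricle. Its log2 fold change was 1.13 (SE 0.31, unadjusted p = 0.00659, adjusted p = 0.714, edgeR), and 1.025 without Cre_neg 1. *Osmr*, the receptor of oncostatin M, was at 23.7, 22.7 and 24.0 TPM in Cre_neg and 30.9, 33.9 and 32.6 TPM in Cre_pos, and *Il6*, which drives hepcidin in the liver, at 2.15, 1.88 and 1.99 TPM and 3.73, 3.13 and 3.09 TPM. Their groups did not overlap either, and their log2 fold changes were 0.33 and 0.60 (adjusted p = 0.714 for each, edgeR). Without Cre_neg 1 they were 0.40 and 0.70 (adjusted p = 0.7245 and 0.7867, edgeR). *Il6* rested on only 16 to 31 estimated counts a ventricle.

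**Figure D5:**
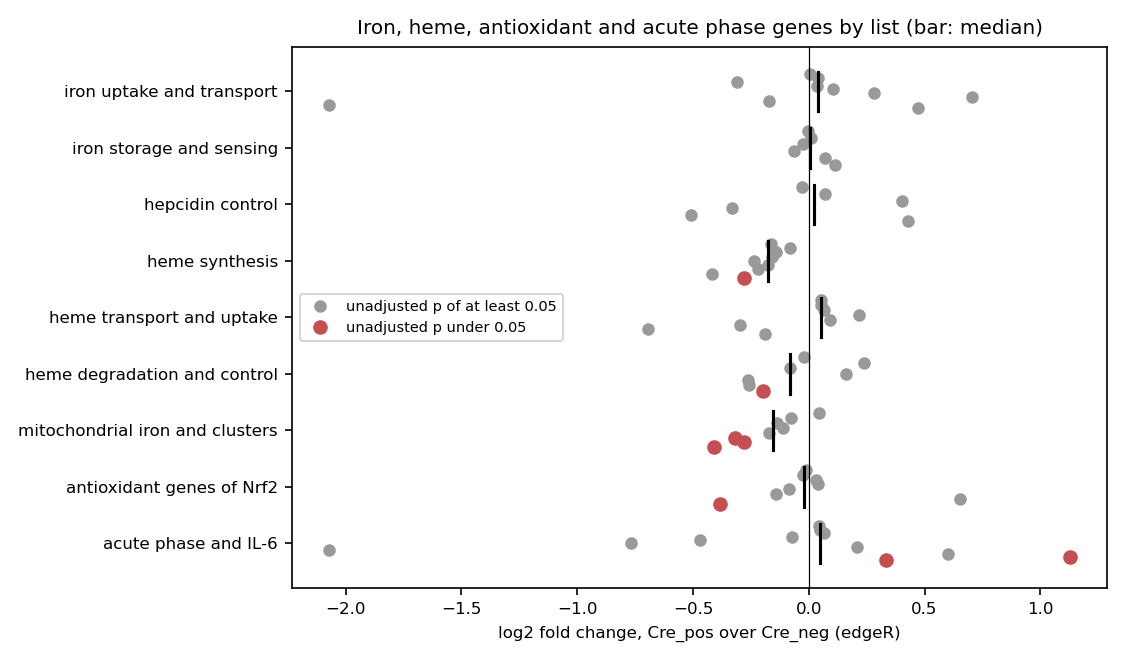
Log2 fold change of Cre_pos over Cre_neg (x axis) for the tested genes of 9 role lists; each point is a gene, red where its unadjusted p was under 0.05, and the bar is the median of the list. The 9 genes of heme synthesis and 7 of 8 of mitochondrial iron lay below 0, and no gene passed an adjusted p of 0.05.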

How the data were processed

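RNA from 6 whole left ventricles (3 Cre_pos and 3 Cre_neg, by their titles) was sequenced from libraries made by BGI Americas. The authors deposited for each gene an estimated count, a TPM and an FPKM value per ventricle. The submitters' processing notes name Bowtie2 2.2.5, RSEM 1.2.12 and GRCm38.p6, and the annotation version is not given in the sources used here. RSEM divides reads that fit several genes or transcripts, and 11.46% of the deposited estimated counts were not whole. The deposited TPM is scaled by the authors to transcript length and to a fixed sum, and was used for levels and ratios. The deposited FPKM values, 6 columns of the authors' group means and the authors' own comparison (fold changes, p-values and q-values) were not used.

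Estimated counts were rounded and analysed with edgeR 4.0.16 in R 4.3.3. Genes were kept by filterByExpr (minimum count 10, minimum total 15), scaled by TMM and compared by the quasi-likelihood test with no covariate, two-sided, with Benjamini-Hochberg adjustment over 13817 genes and a threshold of 0.05. Each standard error is the fold change over the root of its F value. Normalized counts were scaled to the mean effective library size of 14293745. In counts simulated on these libraries, the test recovered 71 of 100 genes changed 2-fold and 96 of 100 changed 4-fold, with 9 false calls. The simulated ventricles of a group shared the same mean for each gene, so none stood apart as Cre_neg 1 did. These shares check the code and do not give the power of the comparison made here. Ratios were compared by exact permutation tests (scipy 1.17.1). Positions and promoters come from RefSeq on GRCm38.p6, and hairpins from GENCODE M39 transcripts.

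The members and lists were chosen with earlier results of these data known. Genes named were the members, the 3 with the smallest p of each role list, any list gene with an adjusted p under 0.05, leading markers and markers at 0, the targeted genes, and the 3 genes most like *Hmox1*, *Hp* and *Slc40a1*. A gene that this rule names is not reported here. *Slc39a14*, *Ltf*, *Cd68*, *C1qa*, *Mrc1*, *S100a8*, *S100a9*, *Cidec*, *Plin1* and *Adipoq* were named after their values were seen. Alternatives were other size factors, DESeq2 1.42.0, other filters, limma 3.58.1 on TPM, each ventricle left out, a replicate block and a Y-linked covariate. P-values measure only the spread between these ventricles.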

Additional observations from a re-analysis of the deposited data

How the results depend on the processing

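No member passed an adjusted p of 0.05 under any alternative tried, the lowest being 0.509 without replicate 3 of Cre_neg. *Fth1*, *Tfrc* and *Hamp* stayed below 0 in each alternative that gave a value, and *Hamp* gave none under a filter of a mean of 50 counts. Over all genes 1 was called, against 5 by DESeq2's Wald test, 2 and 2 by limma on log2(TPM + 0.1) and log2(TPM + 1), and 0 to 2 with a ventricle left out. With a replicate block 0 genes were called, and 1217 had an unadjusted p under 0.05, against 806 without it. The correlations of same-numbered deviations were 0.354, 0.0726 and -0.0318, and those of unlike-numbered deviations ranged from -0.368 to 0.354. With 3 ventricles a group, these values cannot decide whether the numbers pair the ventricles. Replicate 2 was the ventricle with few Y-linked counts in each group. Leaving out each ventricle in turn gave log2 fold changes of -0.14 to 0.50 for *Hmox1*, -0.35 to 0.12 for *Ftl1*, -0.13 to 0.16 for *Slc40a1*, -0.79 to 0.25 for *Hp*, -0.46 to 0.0064 for *Cp*, -0.24 to 0.27 for *Slc11a1* and -0.024 to 0.061 for *Yap1*. The difference between genotypes (Cre_pos minus Cre_neg) in the log2 ratio of *Ftl1* to *Fth1* ranged from -0.14 to 0.40 and that in the log2 ratio of *Hp* to *Hpx*, which is not read because *Hpx* had few counts, from -0.42 to 2.38. By limma on TPM *Ftl1* was at 0.084 with each pseudocount, where the median of all genes shifted to 0.125 and 0.109. The cause of these reversals was not tested. Among the members, counts limited *Hamp* and *Hpx*: 3 counts correspond to 0.202 to 0.228 CPM, for counting error only.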
